A study of Mus musculus with 12 samples.

Results

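CD8+CD28low T cells from wild-type mice were compared before and after stimulation in culture. The comparison rests on 6 of the series' 12 arrays, chosen by their titles: 3 arrays titled Native wt and 3 titled Activated wt. Both groups came from C57Bl/6 mice with the genotype wt. The native cells were freshly isolated, and the activated cells had been kept for 96 h with allogenic antigen-presenting cells (APC) and an antibody against CD3. The other 6 arrays hold the same 2 states in C57Bl/6 cells with the genotype AIRE ko (native and activated, 3 arrays each). They entered the estimate of each gene's spread and are set beside the wild-type values where stated. The arrays of a group are called biological replicates in their titles, numbered 1 to 3, and the number of mice per array is not given. The labels do not name the strain of the APC or say whether APC were removed before lysis. No array of cells cultured without stimulus is used here, so stimulation, 96 h in culture and the presence of other cells cannot be told apart. A p-value below measures only the spread between these arrays.

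CD8+CD28low T cells are a subset of CD8 T cells with little of the costimulatory receptor CD28 on their surface, and they are studied as suppressors of gut inflammation. A T cell stimulated through its receptor leaves quiescence: it makes the high-affinity chain of the interleukin-2 receptor, enlarges, switches to glycolysis and lipid synthesis, enters the cell cycle and divides repeatedly. CD8 cells then load granules with granzymes and change the receptors that govern where they travel, while the genes that keep naive cells at rest are turned down.

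Levels are the deposited log2 values of Affymetrix whole-transcript arrays, so a difference of 1 is a 2-fold change. Values of a group are given in the order of arrays 1, 2 and 3. Differences are activated minus native with the standard error (SE) of the fit, n = 3 arrays per group. A gene is said to rise or fall where its adjusted p was under 0.05 (limma over 19938 genes, Benjamini-Hochberg). Background was read from 1015 olfactory receptor genes, which T cells are not known to use: a gene none of whose 3 arrays exceeded the 95th percentile of those genes on that array is said to be at background in the group. Its difference is then also given as a lower bound ("at least") measured from that percentile. Levels of different genes come from different probes and are not compared with each other.

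Of 19938 genes, 1937 rose (9.72%) and 2170 fell (10.9%). Counts of a list called below are to be read beside these shares. A rise of at least 2-fold was seen for 942 genes (4.72%) and a fall of that size for 715 (3.59%), and 335 rose and 98 fell at least 4-fold. The large changes were thus more often rises. The median difference of all genes was -0.021. All 3 activated arrays lay above all 3 native arrays for 17.5% of genes and below them for 23.4%. Of the called genes 24 had overlapping groups. Replicates lay close: across genes, native arrays correlated at a mean Pearson's r of 0.994 and activated arrays at 0.983. Activated array 2 stood apart. Its interquartile range was 2.49, against 2.73 to 2.98 on the other 5, and its olfactory receptor genes had a median of 5.948 against 5.496 to 5.765, so its high values are lower and its low values higher. Without it 2339 genes rose and 1752 fell. Without native array 1 the falls numbered 1439. Activated Aire-deficient array 3 stood apart in the same way and enters the SE of wild-type genes. Without that array 2656 genes rose and 3219 fell. Without both arrays 3300 genes rose and 3205 fell. Centred on the olfactory receptor median of each array, the values called 470 rises and 413 falls.

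**Figure D1:**
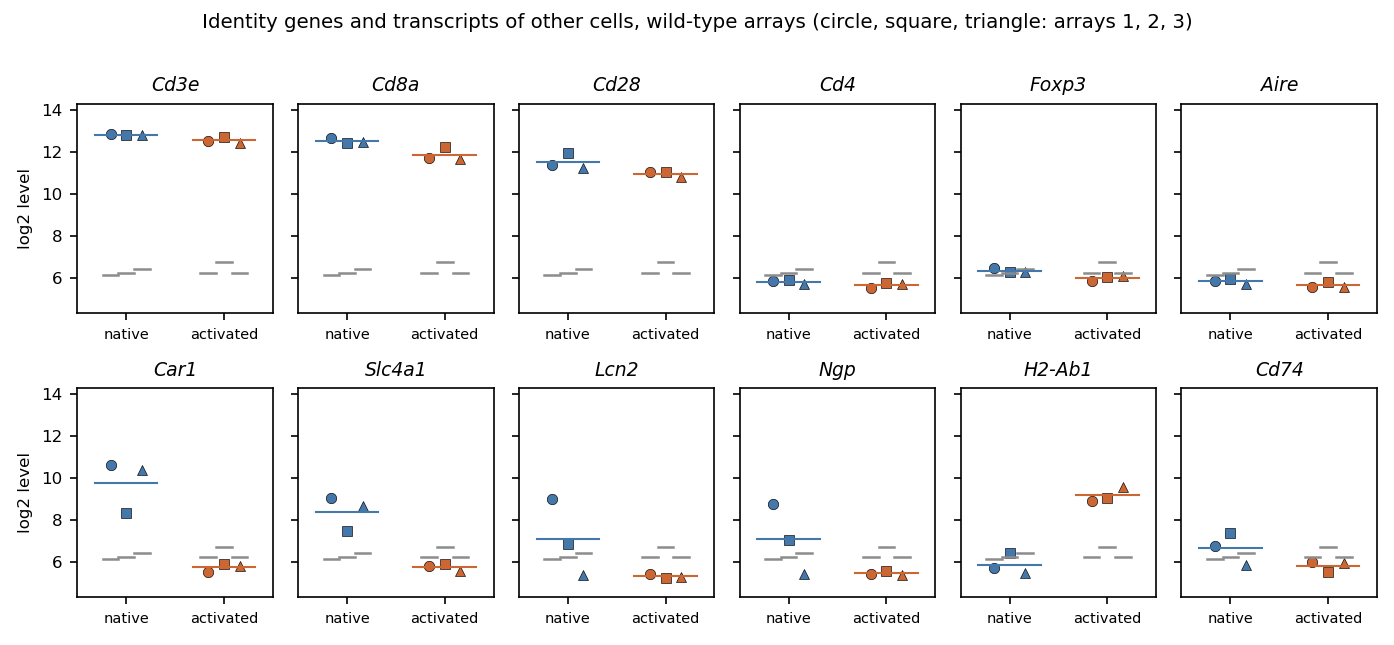
Levels (log2, vertical axis) of genes of T cell identity and of other cells on the 3 native and 3 activated wild-type arrays, 1 panel per gene. Symbols are arrays 1 (circle), 2 (square) and 3 (triangle), coloured lines are group means and grey bars the background level of each array. Cd3e, Cd8a and Cd28 lie far above background in both states, Cd4 and Aire at background, Car1 and Slc4a1 fall to background, and H2-Ab1 rises while Cd74 does not.

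The arrays carried the transcripts of CD8 T cells in both states. 0 of 9 measured CD8 T cell markers rose and 0 fell, against 9.72% and 10.9% of all genes. In 4 of them all activated arrays lay below all native arrays, as they did for 23.4% of all genes. The falls numbered 1 without activated array 2, 2 without activated Aire-deficient array 2 and 3 without activated Aire-deficient array 3. Without both activated array 2 and activated Aire-deficient array 3, a choice made after seeing the data, 5 of the 9 fell. The count of 0 falls thus depends on these arrays. Cd3e, a chain of the T cell receptor complex, read 12.85, 12.79 and 12.83 in native and 12.53, 12.72 and 12.43 in activated cells (-0.26 ± 0.11, adjusted p = 0.115). Cd8a, which defines the lineage with Cd8b1, read 12.67, 12.42 and 12.46 in native and 11.72, 12.23 and 11.66 in activated cells (-0.65 ± 0.27, adjusted p = 0.12). Both genes lay far above background on every array, and their difference did not pass the test, nor did that of Cd8b1 (-0.36 ± 0.25, adjusted p = 0.39). Cd28, the receptor whose low surface level defines the subset, read 11.36, 11.94 and 11.21 in native and 11.06, 11.04 and 10.80 in activated cells (-0.54 ± 0.32, adjusted p = 0.317). Its transcript was thus well above background in both states. Cd4, Aire and, in activated cells, Foxp3 were at background. Foxp3, the factor that specifies CD4 regulatory T cells, read 6.25 to 6.45 in native and 5.85 to 6.09 in activated cells (-0.34 ± 0.11, adjusted p = 0.0447). Its native arrays were so close to background that the lower bound of the fall is 0. The call of Foxp3 was lost without native array 1, 2 or 3, activated array 1, 2 or 3, native Aire-deficient array 1, 2 or 3 or activated Aire-deficient array 2 (adjusted p = 0.0518 to 0.179). Among 4 CD4 T cell markers, 1 rose: Zbtb7b (1.91 ± 0.29, at least 1.41), the factor that sets the CD4 lineage in the thymus. Its native arrays were at background, while Cd4 was at background on all 6.

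Transcripts of other cells were also read. Of 8 erythroid and platelet genes 5 fell and 0 rose, and the mean level of the list was 6.46 to 7.21 on native and 5.76 to 5.81 on activated arrays. Car1, the carbonic anhydrase of red cells, read 10.62, 8.31 and 10.39 in native and 5.49, 5.92 and 5.80 in activated cells, a fall of 4.03 ± 0.52 (at least 3.38, adjusted p = 0.000205). Slc4a1 (-2.62 ± 0.35, at least -1.996) and Alas2 (-1.87 ± 0.35, at least -1.06), of red cell membrane and haem synthesis, fell with it. Itga2b (-0.61) and Klf1 (-0.70) were called too, but from native levels close to background. The lower bound of the fall is 0.022 for Itga2b and 0 for Klf1. All 5 were at background on the activated arrays, and Car1 was lowest of its group on native array 2. In such bulk samples fewer cells of a type and less RNA per cell cannot be told apart. The call of Klf1 was lost without native array 1 (adjusted p = 0.0551). Neutrophil transcripts differed between native arrays: Lcn2 read 9.01, 6.83 and 5.38 and Ngp 8.77, 7.03 and 5.43, with native array 1 high and array 3 low. Activated arrays lay at 5.21 to 5.44 and 5.38 to 5.59, at background, and neither gene passed (-1.76 ± 0.95, adjusted p = 0.255, and -1.62 ± 0.90, adjusted p = 0.269). Of 14 neutrophil genes 1 rose (7.14%, against 9.72% of all genes) and 0 fell. The mean level of the list was 5.41 to 6.56 on native and 5.63 to 5.77 on activated arrays. The gene that rose was Mmp9 (3.99 ± 0.72, at least 2.97), a secreted gelatinase.

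Markers of macrophages and B cells were mostly at background. Of 17 macrophage markers 14 were at background in both states, as were 11 of 14 B cell and 5 of 10 dendritic cell markers. No marker of these 3 lists rose. In the B cell list 2 genes fell (14.3%, against 10.9% of all genes), Cd79b (-0.53 ± 0.17) and Bank1 (-0.59 ± 0.16). The call of Cd79b was lost without native array 1 or 3, activated array 1, 2 or 3, native Aire-deficient array 1, 2 or 3 or activated Aire-deficient array 1 (adjusted p = 0.0544 to 0.172). Bank1 did not pass without native array 1, 2 or 3 or activated array 1 or 3 (adjusted p = 0.0555 to 0.101). Of 9 MHC class II genes, H2-Ab1 read 5.71, 6.42 and 5.46 in native and 8.92, 9.07 and 9.60 in activated cells and rose by 3.33 ± 0.85 (adjusted p = 0.015). The groups do not overlap. The call of H2-Ab1 was lost without native array 1 or 3 or activated array 3 (adjusted p = 0.0501 to 0.0565). The class II genes that antigen-presenting cells express with it did not rise: H2-Aa (5.26 to 5.38), H2-Ea (5.48 to 6.03) and the activator Ciita (5.25 to 5.46) were at background in activated cells, and so was Cd74 (5.52 to 6.004). H2-Ob, a class II-like chain that modulates antigen loading, fell by 2.40 ± 0.46. The mean level of the macrophage list was 5.58 to 5.72 on native and 5.57 to 5.68 on activated arrays, that of the B cell list 6.09 to 6.13 and 5.89 to 6.08, and that of the dendritic cell list 5.78 to 5.92 and 5.60 to 5.83. The part of other cells in the differences below was not tested. Of 6 plasma cell genes 0 rose and 0 fell, and so it was for the 4 markers of gamma delta T cells (0 and 0, with 2 falls without activated Aire-deficient array 3). Among 10 stromal and epithelial genes 0 rose and 1 fell (10%, against 10.9% of all genes), Pecam1 (-1.82 ± 0.45), an adhesion molecule also found on T cells. The call of Pecam1 was lost without activated array 3 (adjusted p = 0.0628). Without activated array 2, 2 genes of that list rose.

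The interleukin-2 receptor alpha chain Il2ra (CD25, chr2:11642792-11693194 in GRCm38.p6), which gives the receptor its high affinity, had the largest rise among genes not at background in native cells. It read 6.95, 6.79 and 6.42 in native and 12.90, 12.28 and 13.004 in activated cells. Every activated array was thus far above every native array, a difference of 6.01 ± 0.20 or 64.4-fold (adjusted p = 2.04e-08). Il2rb (0.69 ± 0.15), the signalling chain it works with, rose less. Il12rb2, which with Il12rb1 forms the interleukin-12 receptor, read 7.19, 7.07 and 6.85 in native and 11.49, 11.46 and 11.44 in activated cells and rose by 4.43 ± 0.19 (adjusted p = 9.04e-08). The 3 activated arrays of Il12rb2 were nearly equal. Il12rb1 rose by 2.43 ± 0.29, and Il10rb (0.69 ± 0.17) rose with them. Of 26 cytokine receptor chains 5 rose (19.2%, against 9.72% of all genes) and 5 fell. The call of Il10rb was lost without native array 2 or 3 (adjusted p = 0.0529 to 0.0722).

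The receptor chains that fell belong to other cytokines. Ifngr2, the signalling chain of the interferon-gamma receptor, read 10.44, 10.46 and 10.63 in native and 6.54, 7.38 and 5.87 in activated cells and fell by 3.92 ± 0.34 (adjusted p = 9.77e-06), whereas the ligand-binding chain Ifngr1 (0.11 ± 0.27, adjusted p = 0.862) was not called. Il6ra read 10.14, 9.98 and 10.26 and 6.75, 7.64 and 6.54 and fell by 3.15 ± 0.28. The groups of both genes do not overlap, and activated array 2 was the highest of its group in both. Il6st (-1.89 ± 0.40), the shared gp130 chain that Il6ra signals through, fell too. Il27ra (-1.35 ± 0.18), a partner of gp130 for interleukin-27, and Il7r (-1.05 ± 0.24), the interleukin-7 receptor of resting T cells, also fell. The count of falls was 8 without activated Aire-deficient array 3.

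Feedback inhibitors of cytokine signalling also changed. Socs2, which is induced by STAT5, read 5.58, 5.42 and 5.36 in native cells, at background, and 10.36, 9.39 and 10.24 in activated cells, a rise of 4.54 ± 0.22 (at least 3.74, adjusted p = 1.1e-07). Cish (2.25 ± 0.37), Pim2 (1.58 ± 0.26) and Socs1 (0.68 ± 0.15) rose as well. Socs3, the inhibitor that acts on gp130, read 8.93, 9.62 and 9.40 in native and 7.60, 7.35 and 7.47 in activated cells and fell by 1.84 ± 0.31. Its activated arrays all lay below its native arrays, the opposite of Socs2. In all 4 of 11 SOCS and PIM genes rose (36.4%, against 9.72% of all genes) and 1 fell (9.09%, against 10.9%).

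**Figure D2:**
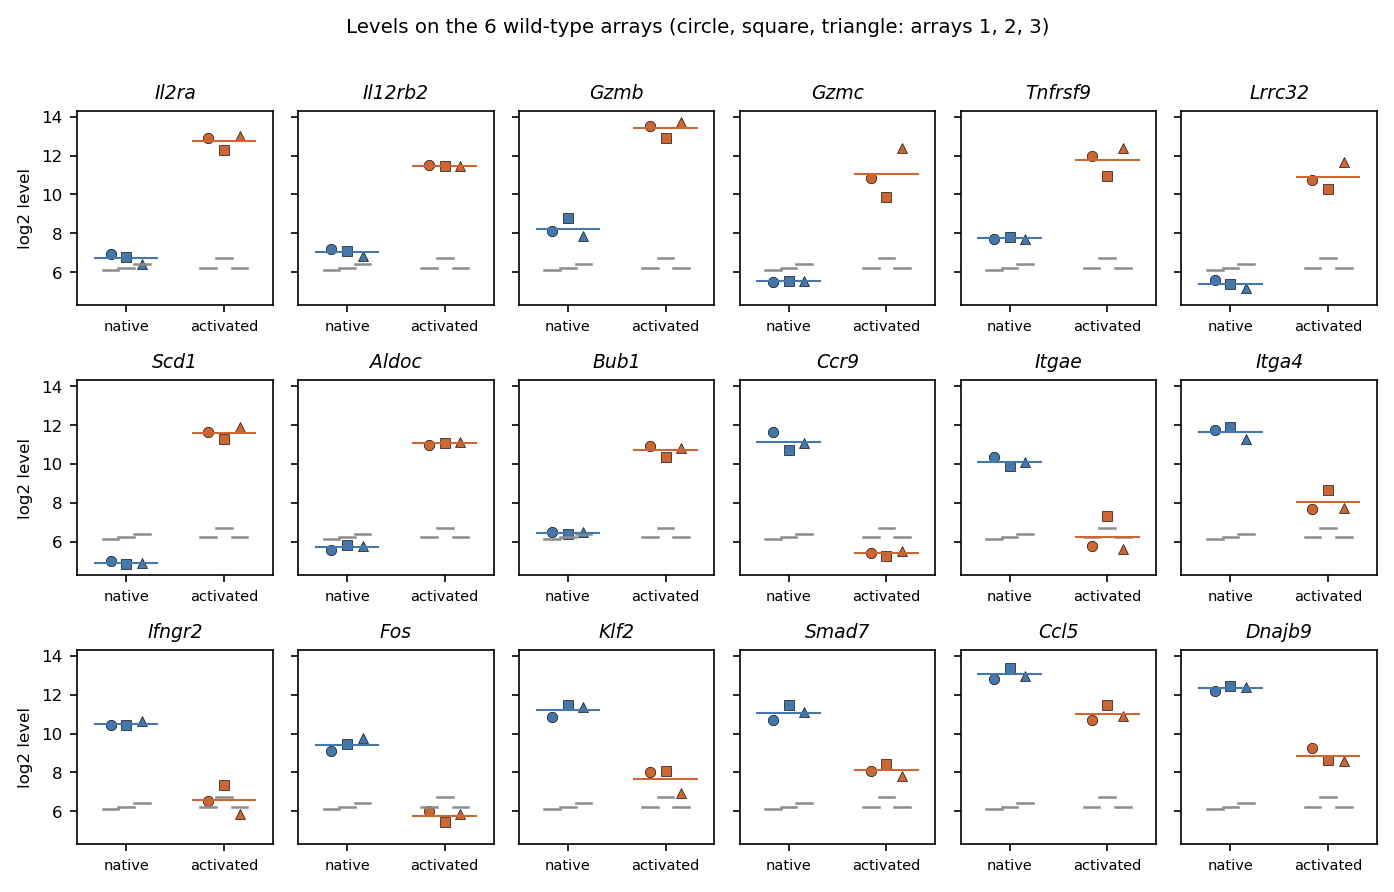
Levels (log2, vertical axis) of 18 genes named in the text on the 6 wild-type arrays, drawn as circle, square and triangle for arrays 1, 2 and 3, with group means as coloured lines and the background level of each array as grey bars. In each panel all activated arrays lie on 1 side of all native arrays. Gzmc, Lrrc32, Scd1 and Aldoc start at background, and Ccr9 and Fos end there.

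Granzymes, the proteases of killer cell granules, split into those that rose and those that fell. Gzmb (chr14:56258836-56262334) read 8.10, 8.78 and 7.84 in native and 13.51, 12.92 and 13.74 in activated cells and rose by 5.15 ± 0.25, 35.4-fold (adjusted p = 1.32e-07). Gzmc (chr14:56231397-56241647) read 5.49, 5.55 and 5.56 and 10.86, 9.86 and 12.38, from background in all native arrays, a rise of 5.50 ± 0.51 (at least 4.78). Activated array 2 was the lowest of its group for both genes and array 3 the highest. Gzmd (3.51 ± 0.79, at least 2.25) and Gzme (2.46 ± 0.67, at least 2.26) rose too, with activated arrays at 8.41, 6.44 and 10.66 and at 8.28, 7.02 and 10.24. The genes Gzmc to Gzmg are close copies in 1 cluster on chromosome 14, and their probes may read each other. Gzma, a granzyme with another cleavage preference, read 9.24, 9.27 and 8.77 in native and 8.55, 6.99 and 7.50 in activated cells and fell by 1.41 ± 0.41. Gzmk fell by 1.08 ± 0.33 and Gzmm by 0.91 ± 0.17 (at least 0.60), and so did Crtam (-1.09 ± 0.13), an adhesion molecule of cytotoxic cells. Prf1, the pore protein perforin, read 9.77, 9.36 and 9.62 and 10.95, 9.47 and 12.19 (1.29 ± 0.53, adjusted p = 0.121). Its activated array 2 lay within the native range while arrays 1 and 3 lay above it. The serpins that protect a killer cell from its own granzymes rose, Serpinb6b (3.20 ± 0.35) and Serpinb9 (2.90 ± 0.31).

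Of 26 cytotoxic genes 12 rose (46.1%) and 4 fell, with a median difference of 0.53. Without native array 2, native array 3 or activated array 3 the rises numbered 7, and the falls numbered 2 without native array 2 or activated array 3 and 7 without activated Aire-deficient array 3. The call of Gzme was lost without native array 1, 2 or 3 or activated array 3 (adjusted p = 0.0611 to 0.0654). Gzma did not pass without native array 1 or 2 or activated array 2 or 3 (adjusted p = 0.0969 to 0.109). Without native array 2 or 3, activated array 1 or 3 or native Aire-deficient array 1, 2 or 3, Gzmk missed the threshold (adjusted p = 0.0505 to 0.157). Gzme rose by less without activated array 3, at 1.60. Nkg7 and Srgn, a membrane protein and the proteoglycan of granules, read 13.13 to 13.24 and 13.19 to 13.30 in native and 13.16 to 13.36 and 12.96 to 13.03 in activated cells and were not called.

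Among 28 cytokines 9 rose (32.1%, against 9.72% of all genes) and 2 fell (7.14%, against 10.9%), while 12 were at background in both states. Lta, lymphotoxin alpha, read 6.67, 6.71 and 6.88 in native and 9.71, 8.34 and 9.93 in activated cells and rose by 2.57 ± 0.40 (adjusted p = 0.000762). Tnf (1.47 ± 0.38), Osm (1.26 ± 0.30), which encodes oncostatin M, and Ebi3 (2.19 ± 0.56, at least 1.52) rose. Ebi3 is the shared beta chain of interleukin-27 and interleukin-35. Il10, an inhibitory cytokine, read 5.30, 5.40 and 5.29 in native cells, all at background, and 7.85, 5.58 and 8.48 in activated cells. Activated arrays 1 and 3 were clearly above background and array 2 was not, and the rise was 1.97 ± 0.62 (at least 1.04, adjusted p = 0.0416). Ifng, the interferon of type 1 responses, read 8.79, 9.77 and 9.28 in native and 9.26, 6.87 and 9.75 in activated cells (-0.66 ± 0.94, adjusted p = 0.746). It overlapped between groups, with activated array 2 far below the other 5 arrays. Il2, Il4, Il17f and Il21 were at background on all 6 arrays. Tnfsf8 (-0.83 ± 0.23) and Tnfsf14 (-0.45 ± 0.14), ligands of the TNF family, fell. The rises numbered 5 without native array 1 or activated array 1 and 4 without activated array 3. The call of Tnf was lost without native array 1 or activated array 1 or 3 (adjusted p = 0.0504 to 0.078). Osm did not pass without activated array 1 or 3 (adjusted p = 0.0519 to 0.0535). Without native array 1 or activated array 2 or 3, Ebi3 missed the threshold (adjusted p = 0.0511 to 0.0581). The call of Il10 was lost without native array 1, 2 or 3, activated array 1 or 3 or native Aire-deficient array 1, 2 or 3 (adjusted p = 0.0589 to 0.172). Tnfsf8 did not pass without native array 1 or 3 or activated array 3 (adjusted p = 0.0654 to 0.107). Without native array 1, 2 or 3, activated array 1, 2 or 3 or native Aire-deficient array 2, Tnfsf14 missed the threshold (adjusted p = 0.0635 to 0.139).

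No chemokine of 11 rose and 2 fell (18.2%, against 10.9% of all genes). Ccl5 (RANTES), which memory CD8 cells store as transcript, read 12.80, 13.37 and 12.96 in native and 10.70, 11.47 and 10.89 in activated cells and fell by 2.02 ± 0.20 (adjusted p = 2.24e-05). Xcl1, the lymphotactin that draws cross-presenting dendritic cells, read 8.21, 8.60 and 8.56 and 7.09, 6.70 and 6.37 and fell by 1.74 ± 0.42. In both genes every activated array lay below every native array. Ccl3 (-1.04 ± 0.78, adjusted p = 0.45) and Ccl4 (-0.46 ± 0.38, adjusted p = 0.513), early products of stimulated CD8 cells, were not called. The call of Xcl1 was lost without activated array 3 (adjusted p = 0.0532).

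Several receptors of the TNF family that carry costimulation rose. Tnfrsf9 (4-1BB) read 7.71, 7.81 and 7.71 in native and 11.95, 10.94 and 12.40 in activated cells, a rise of 4.02 ± 0.29 (adjusted p = 2.1e-06). Tnfrsf18 (2.04 ± 0.20), Tnfrsf4 (1.91 ± 0.44) and Tnfrsf8 (2.02 ± 0.55, at least 1.42), which encode GITR, OX40 and CD30, rose with it, while Tnfrsf25 (-1.20 ± 0.10, at least -0.76), which encodes DR3, fell. In all 6 of 12 rose (50%, against 9.72% of all genes) and 1 fell (8.33%, against 10.9%). The falls numbered 2 without activated Aire-deficient array 2 and 3 without array 3 of that group. The call of Tnfrsf8 was lost without native array 1, 2 or 3 or activated array 1 or 3 (adjusted p = 0.0594 to 0.068). Without activated array 3 the rise of Tnfrsf8 was 1.32. Inhibitory receptors also changed. Lag3, a ligand of MHC class II, read 5.85, 6.05 and 5.80 in native cells, at background, and 8.88, 9.10 and 10.41 in activated cells, a rise of 3.56 ± 0.50 (at least 3.20, adjusted p = 0.000387). Havcr2 (TIM-3) went from 5.42, 5.38 and 5.36, at background, to 7.92, 6.97 and 9.52 and rose by 2.75 ± 0.47 (at least 1.88). Both had all activated arrays above all native arrays, with array 3 highest.

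Lilrb4a (2.33 ± 0.43), Tigit (1.96 ± 0.18), Icos (1.36 ± 0.27) and Cd244a (1.46 ± 0.46) completed the largest rises of the CD28 family and inhibitory receptors. Of that list 7 of 19 rose (36.8%, against 9.72% of all genes) and 5 fell (26.3%, against 10.9%). Icos is a costimulatory relative of Cd28, and Tigit competes with Cd226 for shared ligands. Cd226 read 10.70, 10.31 and 10.37 in native and 8.60, 9.45 and 8.79 in activated cells and fell by 1.52 ± 0.28, so that the members of this pair moved in opposite directions. Tox (-1.79 ± 0.28), a factor linked to exhausted CD8 cells, Klrg1 (-1.43 ± 0.32, at least -0.53), Btla (-0.86 ± 0.20) and Cd96 (-0.78 ± 0.19) fell. Ctla4, which outcompetes Cd28 for its ligands, read 8.01, 8.13 and 7.86 in native and 10.15, 10.91 and 10.21 in activated cells. All 3 activated arrays were far above the native ones, yet the difference of 2.43 ± 0.83 was not called (adjusted p = 0.0619). Its SE includes the Aire-deficient arrays, among which activated arrays read 9.60, 11.09 and 6.46. The call of Cd244a was lost without native array 1, 2 or 3, activated array 1 or 3, native Aire-deficient array 1, 2 or 3 or activated Aire-deficient array 1 (adjusted p = 0.0521 to 0.127). Without activated array 3 the rise of Cd244a was 0.84.

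Suppressor genes shared with regulatory T cells rose in large number: 15 of 23 (65.2%) rose and 4 fell, with a median of 1.91 (1.04 with genes at background in 1 state set to their bound). The list shares Il2ra, Gzmb, Lag3 and other members with those above, so it is not a separate set of genes. Lrrc32 (GARP, chr7:98489305-98501831), which holds latent TGF-beta on the cell surface, read 5.61, 5.39 and 5.21 in native cells, at background, and 10.77, 10.28 and 11.64 in activated cells. It rose by 5.49 ± 0.29 (at least 4.64, adjusted p = 2.33e-07), and the groups lie far apart. Capg, an actin-capping protein, read 6.97, 6.87 and 6.99 and 11.42, 10.64 and 11.82 and rose by 4.35 ± 0.23. Fgl2 (3.42 ± 0.41, at least 2.85), a secreted suppressor molecule, rose as well. Ikzf2 (Helios) read 8.40 to 9.12 in native and 8.27 to 8.74 in activated cells and was not called. Of the ectoenzymes that turn ATP into adenosine, Entpd1 (CD39), which was chosen after its values were seen, read 6.30, 6.49 and 6.29 and 9.69, 9.03 and 10.57 and rose by 3.41 ± 0.29, whereas Nt5e (CD73) read 9.57, 9.40 and 9.30 and 7.70, 7.88 and 6.89 and fell by 1.93 ± 0.46. Itgae and Gpr83 (-1.20 ± 0.17, at least -0.44) fell. The call of Nt5e was lost without activated array 3 (adjusted p = 0.0538). The falls numbered 2 without activated array 3.

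Most called genes of the TGF-beta pathway fell. Tgfb1 (0.98 ± 0.18), the ligand itself, rose, as did Itgav (0.64 ± 0.20), an integrin chain that can release the latent form. Smad7, the inhibitory SMAD that TGF-beta induces as feedback, read 10.69, 11.45 and 11.10 in native and 8.08, 8.41 and 7.83 in activated cells and fell by 2.97 ± 0.33 (adjusted p = 6.18e-05). Skil, a repressor of SMAD targets, read 8.93, 9.95 and 9.30 and 7.91, 7.32 and 7.95 and fell by 1.67 ± 0.29. Neither gene overlapped between groups. Tgfbr3 (-1.75 ± 0.15), a co-receptor, Smurf2 (-1.44 ± 0.23), a ligase that degrades the receptors, Tgif1 (-1.28 ± 0.25) and Ski (-1.16 ± 0.12), repressors of SMAD targets, fell with them. The receptor chain Tgfbr1 (-1.02 ± 0.17) and the shared Smad4 (-0.87 ± 0.15), named here after their values were seen, fell too, so that activating and inhibitory members went down together. Of 23 genes 3 rose and 12 fell (52.2%, against 10.9% of all genes), with a median of -0.80. Without activated Aire-deficient array 2 the rises numbered 5. The call of Itgav was lost without native array 1, 2 or 3, activated array 1 or 3 or native Aire-deficient array 3 (adjusted p = 0.0531 to 0.146). Without activated array 3 the rise of Itgav was 0.41.

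Among transcription factors of T cell fate 8 of 29 rose (27.6%, against 9.72% of all genes) and 10 fell (34.5%, against 10.9%). Irf8 read 6.75, 6.74 and 6.46 in native and 10.07, 8.67 and 10.67 in activated cells and rose by 3.15 ± 0.45. Irf4, which scales with the strength of the receptor signal, read 6.81, 7.47 and 6.57 and 10.02, 8.85 and 10.28 and rose by 2.77 ± 0.37. For both the activated arrays lay above the native ones, with array 2 lowest. Bhlhe40 (1.97 ± 0.42), Prdm1 (1.92 ± 0.33), a driver of terminal effector cells, Nfil3 (1.63 ± 0.37) and Hif1a (1.05 ± 0.19), the oxygen-regulated chain of HIF-1, rose. Zbtb32, a repressor induced in stimulated lymphocytes, was among the 15 largest rises of all genes, from 5.92, 6.33 and 6.07 to 11.41, 9.75 and 11.87 (4.90 ± 0.45). Runx1 read 9.57, 9.61 and 9.38 and 7.65, 7.41 and 6.60 and fell by 2.30 ± 0.27. Id3 (-1.59 ± 0.27, at least -1.27) and Lef1 (-1.18 ± 0.36), factors of less differentiated cells, Ahr (-1.29 ± 0.15, at least -0.78), Ikzf3 (-1.25 ± 0.16) and Zeb2 (-0.86 ± 0.26, at least -0.33) fell. Tbx21 (T-bet) read 9.01 to 9.48 in native and 9.22 to 9.72 in activated cells and was not called (0.19 ± 0.21, adjusted p = 0.65), and neither was Gata3 (-0.46 ± 0.33, adjusted p = 0.431). Eomes (0.52 ± 0.17) rose slightly, with overlapping groups. The call of Lef1 was lost without native array 1, 2 or 3, activated array 1 or 3 or native Aire-deficient array 1, 2 or 3 (adjusted p = 0.0537 to 0.158). Zeb2 did not pass without native array 1 or 2, activated array 1, 2 or 3, native Aire-deficient array 3 or activated Aire-deficient array 1 (adjusted p = 0.0502 to 0.123). Without native array 1, 2 or 3, activated array 1 or 3, native Aire-deficient array 1, 2 or 3 or activated Aire-deficient array 1, Eomes missed the threshold (adjusted p = 0.0597 to 0.202). Without native array 2 the difference of Zeb2 was -0.51.

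Immediate early genes, which T cells switch on within minutes of a signal, were often higher in the freshly isolated cells. Fosb read 9.45, 11.03 and 10.01 in native and 6.51, 5.96 and 6.15 in activated cells and fell by 3.96 ± 0.50 (adjusted p = 0.000167). Fos read 9.10, 9.45 and 9.76 and 6.02, 5.46 and 5.87, at background after culture, and fell by 3.65 ± 0.28 (at least 3.05). Dusp1, a phosphatase that shuts off MAP kinases, read 12.01, 12.65 and 12.29 and 9.14, 8.07 and 9.36 and fell by 3.46 ± 0.33. In all 3 genes native array 1 was the lowest native array, still far above every activated array. Jun (-2.996 ± 0.43), Nr4a1 (-2.87 ± 0.54) and Dusp2 (-2.31 ± 0.33) fell in the same way, and so did the feedback genes Tnfaip3 (A20), from 12.01, 12.48 and 12.20 to 8.39, 8.71 and 8.60, and Rgs2, from 10.46, 10.90 and 10.85 to 6.66, 6.02 and 5.97 (-3.67 ± 0.29 and -4.52 ± 0.27). Cd69, an early activation marker named after its values were seen, read 12.45, 13.06 and 12.99 in native and 11.01, 9.92 and 10.90 in activated cells and fell by 2.23 ± 0.36 (adjusted p = 0.0011). Of 24 immediate early genes 13 fell (54.2%) and 1 rose, Ier3 (1.89 ± 0.25), with a median of -1.29. Without activated array 2 the rises numbered 3. Egr1, Egr2 and Myc were not called: Egr1 (-1.17 ± 0.51, adjusted p = 0.137), Egr2 (-0.54 ± 0.48, adjusted p = 0.551) and Myc (0.38 ± 0.22, adjusted p = 0.293). How long the native cells were handled before lysis is not given, and its part in these levels was not tested.

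Most genes of naive and resting T cells fell. Klf2, which keeps T cells quiescent and drives the exit receptor S1pr1, read 10.85, 11.46 and 11.38 in native and 8.03, 8.06 and 6.96 in activated cells and fell by 3.55 ± 0.36 (adjusted p = 3.44e-05). Klf3 read 11.05, 10.94 and 10.79 and 7.70, 8.40 and 6.45 and fell by 3.42 ± 0.46. S1pr1 read 12.02, 11.90 and 11.73 and 8.84, 10.37 and 6.67 and fell by 3.25 ± 0.82 (adjusted p = 0.0141). Its activated arrays spread widely, with array 2 high and array 3 low, yet none reached the native range. Actn1 (-2.99 ± 0.37), Nsg2 (-2.60 ± 0.36) and Gpr183 (-2.14 ± 0.42) fell too. In all 17 of 24 fell (70.8%) and 0 rose, and the median was -1.51. All 24 measured differences were negative. Cd27 read 11.04 to 11.49 in native and 10.58 to 11.42 in activated cells and was not called. Dtx1, a Notch regulator linked to anergy, read 10.94, 10.65 and 10.88 and 6.43, 6.45 and 6.49 and fell by 4.37 ± 0.14. It was at nearly 1 level within each state.

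Homing receptors for the gut were among the largest falls. Ccr9 (chr9:123767211-123783457), the receptor for the small-intestinal chemokine CCL25, read 11.62, 10.74 and 11.08 in native cells and 5.43, 5.28 and 5.53 in activated cells, at background. Its fall of 5.74 ± 0.25 (at least 4.76, adjusted p = 9.04e-08) was the largest of all genes. Itgae (CD103), which binds E-cadherin on epithelium, read 10.35, 9.91 and 10.12 and 5.79, 7.32 and 5.62 and fell by 3.88 ± 0.40 (adjusted p = 3.83e-05). Itga4, the alpha chain of the gut-homing integrin with Itgb7, read 11.74, 11.90 and 11.31 and 7.70, 8.68 and 7.74 and fell by 3.61 ± 0.27 (adjusted p = 2.87e-06). Activated array 2 was the highest of its group for both integrin chains and still well below the native arrays. The beta chain was not called: Itgb7 (-1.05 ± 0.37, adjusted p = 0.0708). Ccr7 (-1.93 ± 0.52), which leads cells into lymph nodes, and S1pr5 (-1.84 ± 0.25, at least -1.29) fell. Receptors of inflamed tissue rose: Ccr2 read 6.78, 6.96 and 6.60 and 9.41, 9.72 and 8.89 and rose by 2.56 ± 0.20 (adjusted p = 3.41e-06), and Ccr4 (2.32 ± 0.45, at least 1.48) and Cxcr6 (1.74 ± 0.46) rose as well. Cxcr3 was not called (0.32 ± 0.64, adjusted p = 0.828), and its activated arrays read 9.96, 10.86 and 8.24. Of 27 homing and adhesion genes 6 rose (22.2%, against 9.72% of all genes) and 8 fell (29.6%, against 10.9%). The rises numbered 2 without native array 3 and 3 without activated array 1. The call of Ccr7 was lost without native array 1, 2 or 3 or activated array 1 or 3 (adjusted p = 0.0553 to 0.0951). Cxcr6 did not pass without native array 2 or 3 or activated array 1 or 2 (adjusted p = 0.0558 to 0.079).

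NK-type receptors of CD8 cells rose in part. Klrk1 (NKG2D), an activating receptor for stress ligands, read 7.30, 7.53 and 6.85 in native and 10.41, 10.22 and 10.27 in activated cells and rose by 3.07 ± 0.18 (adjusted p = 4.86e-07). Klrc1 (NKG2A), an inhibitory receptor, read 8.09, 8.79 and 8.27 and 10.93, 11.11 and 10.85 and rose by 2.58 ± 0.23, and its partner Klrd1 (0.97 ± 0.15) rose with it. Klrc3 (1.79 ± 0.27, at least 0.89), Klrc2 (1.05 ± 0.27) and Klra5 (1.29 ± 0.40, at least 0.99) rose. Members of the Klrc and Klra families are close copies whose probes may read each other. Hcst (-0.88 ± 0.19), the DAP10 adaptor of Klrk1, fell, opposite to the receptor. In all 7 of 17 rose (41.2%, against 9.72% of all genes) and 2 fell (11.8%, near the 10.9% of all genes). Of 8 NK cell markers 1 rose (12.5%), Eomes (0.52 ± 0.17, with overlapping groups), and 1 fell (12.5%), Klra8 (-1.02 ± 0.23, at least -0.16). The falls of this list numbered 2 without native array 2, activated array 2 or native Aire-deficient array 1 or 2 and 3 without activated Aire-deficient array 2 or 3, and the rises 2 without activated array 2. The NK cell receptor gene Ncr1 read 7.34, 6.23 and 6.66 in native and 5.73, 5.38 and 5.52 in activated cells, where it was at background. The call of Klra5 was lost without native array 1, 2 or 3, activated array 1 or 3 or native Aire-deficient array 1, 2 or 3 (adjusted p = 0.0503 to 0.167). Klrc2 did not pass without native array 1 or 3 or activated array 3 (adjusted p = 0.0534 to 0.0727). Without native array 1, 2 or 3, activated array 1 or 3, native Aire-deficient array 1, 2 or 3 or activated Aire-deficient array 1, Eomes missed the threshold (adjusted p = 0.0597 to 0.202).

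S100, annexin and galectin genes, which mark effector cells, were called in 1 direction alone: 9 of 19 rose (47.4%), 0 fell and 10 were not called, 3 of these with a difference below 0. Anxa2, a membrane-binding annexin, read 7.48, 7.86 and 7.47 in native and 11.63, 11.08 and 11.82 in activated cells and rose by 3.90 ± 0.24 (adjusted p = 6.03e-07). S100a6 read 5.57, 5.79 and 5.65, at background, and 9.55, 9.01 and 10.13, a rise of 3.89 ± 0.22 (at least 3.31). Lgals3 read 6.68, 6.85 and 6.21 and 10.45, 10.01 and 10.96 and rose by 3.89 ± 0.39. All activated arrays lay above all native arrays in the 3 genes. Lgals1 (1.74 ± 0.10), a galectin with suppressive action on T cells, S100a4 (2.27 ± 0.30) and Anxa4 (2.17 ± 0.35, at least 1.25) rose too. Of 8 GIMAP GTPases 2 rose, Gimap7 (2.20 ± 0.17) and Gimap4 (0.57 ± 0.17), and 0 fell. Gimap7 read 8.64, 8.38 and 8.66 and 10.52, 10.83 and 10.92, while Gimap6 read 12.19 to 12.23 and 11.59 to 12.02 without a call. The call of Gimap4 was lost without native array 2 or 3 or activated array 1 or 2 (adjusted p = 0.055 to 0.142).

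Of 35 genes of the T cell receptor complex and its proximal signalling 2 rose (5.71%, against 9.72% of all genes). A fall was called for 5 (14.3%, against 10.9%), and the median was -0.29. In 18 genes all activated arrays lay below all native arrays, as they did for 23.4% of all genes. Fitted on the 6 wild-type arrays alone, 14 fell. Pag1, an adaptor that holds the inhibitory kinase Csk at the membrane, read 9.06, 9.11 and 8.92 in native and 7.34, 7.42 and 7.31 in activated cells and fell by 1.67 ± 0.28 (adjusted p = 0.00116). The kinase Prkcq (-0.77 ± 0.16) and the adaptor Bcl10 (-0.93 ± 0.14), which link the receptor to NF-kappaB, fell, as did Cd6 (-0.76 ± 0.23) and Lat (-0.42 ± 0.12). Ubash3b, a phosphatase that dampens the receptor, read 8.37, 8.26 and 7.96 and 9.79, 8.97 and 10.23 and rose by 1.47 ± 0.29, and Cblb (0.46 ± 0.13), a ligase with a similar role, rose slightly. Zap70 read 10.20 to 10.33 and 10.10 to 10.24 and was not called. The rises numbered 1 without any 1 of native arrays 1, 2 and 3 and activated arrays 2 and 3, and 4 without activated Aire-deficient array 3. The falls numbered 3 without native array 1, native array 3 or activated array 3, 10 without activated Aire-deficient array 2 and 15 without activated Aire-deficient array 3. The call of Cd6 was lost without native array 1, 2 or 3, activated array 1, 2 or 3, native Aire-deficient array 1, 2 or 3 or activated Aire-deficient array 1 (adjusted p = 0.052 to 0.148). Lat did not pass without native array 1 or 3 or activated array 2 or 3 (adjusted p = 0.0584 to 0.0845). Without native array 1, 2 or 3 or activated array 2 or 3, Cblb missed the threshold (adjusted p = 0.0542 to 0.124).

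In the list of G1 and S phase control 15 of 29 genes rose, 1 fell and 13 were not called. E2f8 read 6.75, 6.59 and 6.43 in native and 10.09, 9.44 and 9.77 in activated cells and rose by 3.17 ± 0.20 (adjusted p = 6.3e-07). E2f7 (2.18 ± 0.23, at least 1.92), the related repressor, and E2f1 (1.77 ± 0.19) and E2f3 (2.33 ± 0.25), activators of S phase genes, rose. Cdk6 (2.23 ± 0.24) and Ccne1 (1.92 ± 0.22), a kinase and a cyclin of G1, rose with them. Rbl2 (-0.40 ± 0.12), a pocket protein of resting cells, fell. Cdkn1b, the inhibitor p27, read 11.15, 10.999 and 11.13 and 10.22, 10.84 and 10.09 (-0.71 ± 0.42, adjusted p = 0.303). D-type cyclins were not called: Ccnd2 read 11.24 to 11.75 and 11.17 to 11.58, and Ccnd3 10.46 to 10.76 and 10.60 to 11.06. The call of Rbl2 was lost without native array 1, 2 or 3, activated array 1 or 2 or native Aire-deficient array 3 (adjusted p = 0.0503 to 0.122). Without activated Aire-deficient array 3 the falls of this list numbered 3.

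Of 46 genes of DNA replication and nucleotide synthesis 40 rose (87%, against 9.72% of all genes) and 0 fell, with a median of 1.41. Tk1, thymidine kinase, read 6.50, 6.59 and 6.33 in native and 9.93, 9.56 and 10.15 in activated cells and rose by 3.41 ± 0.19. Rrm2, the regulated subunit of ribonucleotide reductase, read 7.89, 7.59 and 7.57 and 11.34, 10.58 and 11.16 and rose by 3.34 ± 0.21. Uhrf1, which carries DNA methylation to new strands, read 6.33, 6.61 and 6.44 and 9.43, 9.27 and 9.31 and rose by 2.88 ± 0.11 (adjusted p = 4.54e-08). Within each state the arrays of these genes were close, and the groups lay far apart. Mcm10 (2.74 ± 0.20, at least 2.57), Pole (2.50 ± 0.14) and Cdc45 (2.45 ± 0.18) of the replication fork rose as well. Pcna, the sliding clamp, was an exception, at 12.01, 12.13 and 12.06 and 12.19, 11.85 and 12.19 (0.0069 ± 0.15, adjusted p = 0.987). Pclaf, a Pcna partner, read 7.46, 7.72 and 7.35 and 12.17, 11.70 and 11.77 and rose by 4.37 ± 0.22.

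Mitosis held the list with the largest median. Of 47 genes 45 rose (95.7%), and the median was 3.07 (2.89 at the bounds). Bub1, a kinase of the spindle checkpoint, read 6.50, 6.41 and 6.49 in native and 10.93, 10.35 and 10.81 in activated cells and rose by 4.23 ± 0.13, 18.8-fold (adjusted p = 1.44e-08). Aurkb, the kinase of the chromosomal passenger complex, read 7.21, 7.01 and 6.65 and 11.30, 11.09 and 11.15 and rose by 4.22 ± 0.21. Ncapg, a condensin subunit, read 6.61, 6.60 and 6.34 and 10.52, 9.999 and 10.46 and rose by 3.81 ± 0.15. The SE of these genes was small beside the change. The motors Kif11 (3.74 ± 0.18) and Cenpe (3.59 ± 0.18) and the spindle protein Hmmr (3.60 ± 0.17) rose by similar amounts. The 2 genes that fell were Pttg1 (-0.55 ± 0.11), securin, and Smc4 (-0.57 ± 0.11), a condensin core subunit. Replication histones rose in 23 of 27 cases (median 1.40) and fell in 0. They are near-identical copies and were not separated. H4c6 (3.31 ± 0.21), H1f5 (3.26 ± 0.19) and H2ac4 (3.11 ± 0.19) had the largest rises.

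The promoters of these lists differ in known motifs of the cell cycle. RefSeq promoters of GRCm38.p6 (250 bases before to 50 after the start) were searched on both strands (a gene can have several promoters in the table or none) for TTTNNCGC, a form of the site of E2F factors, and for TTTGAA, the cell-cycle homology region (CHR) bound by complexes that time mitotic genes. The E2F letters were in 5.17% of all 32851 promoters and the CHR letters in 17.9%. Of 44 promoters of measured replication genes 17 held the E2F letters (38.6%) and 5 the CHR letters (11.4%). Of 41 mitosis promoters 32 held the CHR letters (78.0%) and 5 the E2F letters (12.2%). The differing base composition of promoters was not taken into account, and a match is a description of the letters, not a bound site. The promoters of Uhrf1 and Ncapg show the 2 kinds. Sequences run 5′ to 3′ on the strand of the gene, with the match in capitals.
Uhrf1, chr17:56303087-56303386, plus strand, match 56 bases before the start: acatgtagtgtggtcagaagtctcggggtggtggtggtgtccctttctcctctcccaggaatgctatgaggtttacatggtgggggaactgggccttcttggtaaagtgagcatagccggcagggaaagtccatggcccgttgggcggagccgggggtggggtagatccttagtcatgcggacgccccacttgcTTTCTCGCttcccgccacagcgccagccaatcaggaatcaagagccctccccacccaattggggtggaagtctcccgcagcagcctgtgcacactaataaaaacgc
Ncapg, chr5:45669675-45669974, plus strand, match 30 bases before the start: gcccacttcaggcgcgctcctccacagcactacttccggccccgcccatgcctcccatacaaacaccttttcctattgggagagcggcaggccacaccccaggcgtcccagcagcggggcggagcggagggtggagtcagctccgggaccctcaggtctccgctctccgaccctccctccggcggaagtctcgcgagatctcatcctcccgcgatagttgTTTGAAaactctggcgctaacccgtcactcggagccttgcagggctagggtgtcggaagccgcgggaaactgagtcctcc

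**Figure D3:**
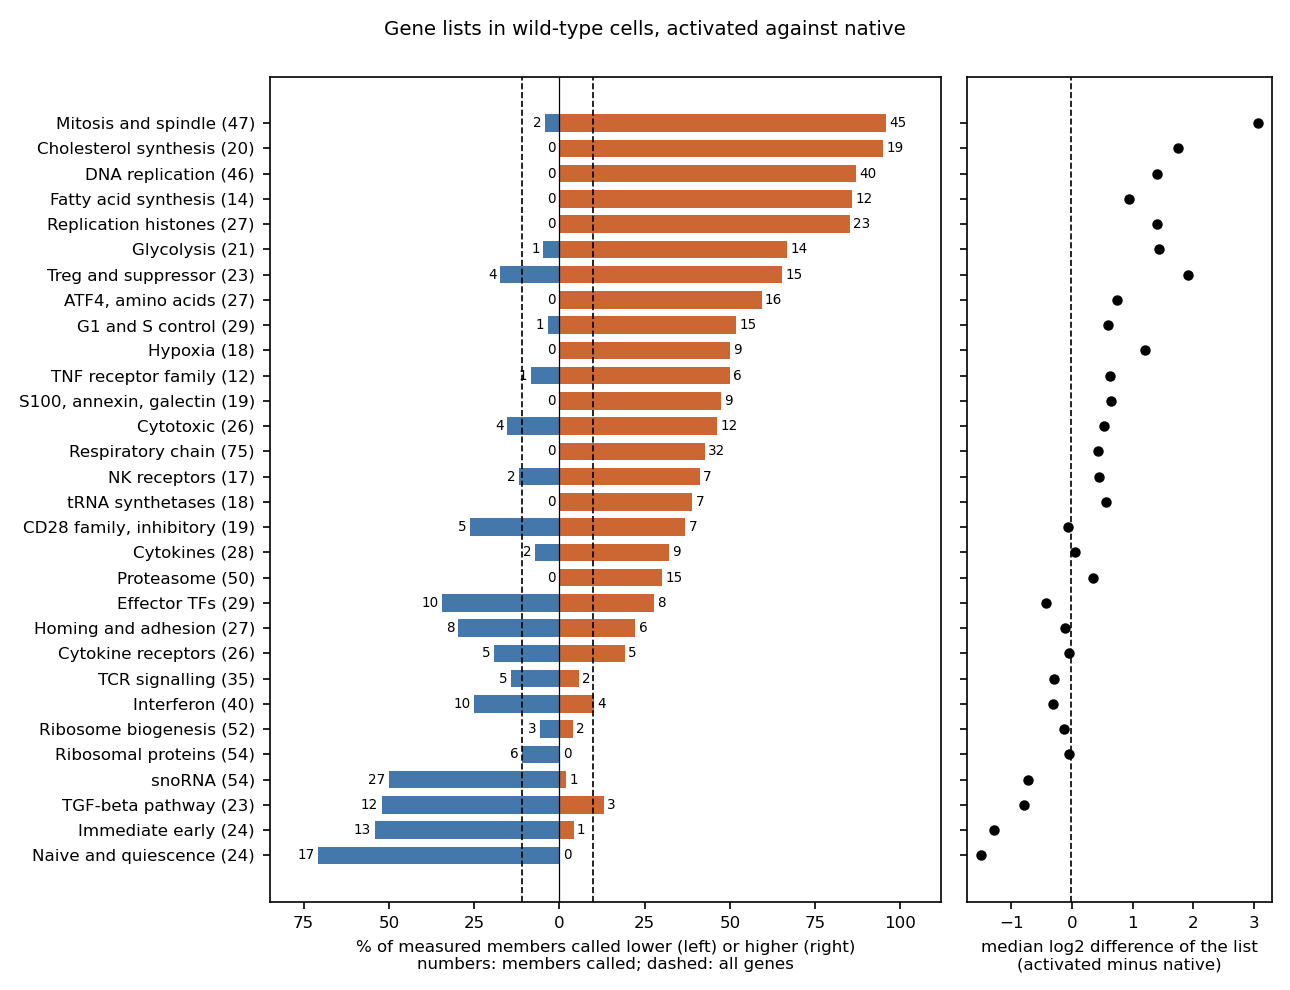
Left, percent of the measured members of 30 gene lists called higher (right of 0) or lower (left of 0) in activated wild-type cells, with the number called at each bar and the list size in parentheses; dashed lines mark 9.72% and 10.9% of all genes. Right, the median log2 difference of each list, with the median of all genes dashed. Of the lists drawn, mitosis has the largest share of rises and the largest median, and naive and quiescence genes have the largest share of falls. The list of sterol exporters, LXR receptors and Mylip (5 measured genes) is not drawn.

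Most glycolysis genes rose. Of 21 measured genes 14 rose (66.7%), 6 were not called and 1 fell, with a median of 1.43. Slc2a3, a high-affinity glucose transporter, read 8.70, 8.75 and 8.58 in native and 11.55, 11.22 and 12.03 in activated cells and rose by 2.92 ± 0.51 (adjusted p = 0.00159). Hk2 (2.90 ± 0.30, at least 2.53), which traps glucose in the cell, rose. Tpi1 of the middle of the pathway read 8.09, 8.24 and 8.25 and 11.58, 11.35 and 11.56 and rose by 3.31 ± 0.21, and Pgk1 (2.65 ± 0.20) rose too. Slc16a3 (MCT4), which exports lactate, read 6.25, 6.41 and 6.46 and 10.25, 9.88 and 10.41 and rose by 3.81 ± 0.31. In Slc2a3, Tpi1 and Slc16a3 every activated array was above every native array. Aldoc, an aldolase isoform, read 5.56, 5.85 and 5.76 in native cells, at background, and 10.95, 11.07 and 11.15 in activated cells, a rise of 5.33 ± 0.66 (at least 4.80, adjusted p = 0.00015). Its 3 activated wild-type arrays were nearly equal, while activated Aire-deficient array 3, which enters the SE, read 7.84. Ldhb (-0.56 ± 0.15), the lactate dehydrogenase chain of oxidative tissue, fell to background from native levels so close to it that the lower bound of the fall is 0. The call of Ldhb was lost without native array 1 or 3 or activated array 1 (adjusted p = 0.0757 to 0.0901).

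Of 18 other genes that respond to low oxygen 9 rose and 0 fell (median 1.21). Bnip3, a receptor for the removal of mitochondria, read 6.58, 6.08 and 6.40 in native and 11.59, 11.09 and 11.66 in activated cells and rose by 5.09 ± 0.56 (adjusted p = 6.29e-05). Egln3, a HIF hydroxylase that HIF itself induces, read 7.11, 7.17 and 7.24 and 11.21, 11.19 and 11.55 and rose by 4.15 ± 0.83. Ak4, a mitochondrial adenylate kinase outside the list, read 5.11, 5.15 and 5.05, at background, and 10.85, 10.49 and 10.85 and rose by 5.62 ± 0.68 (at least 4.47). All 3 were uniform within each wild-type state, while activated Aire-deficient array 3 read 8.94, 7.15 and 7.52. Plod2 (4.02 ± 0.49, at least 3.10), Ero1a (2.93 ± 0.45), Ndrg1 (2.80 ± 0.76) and Ddit4 (2.59 ± 0.49) rose too. Pdk1 (0.71 ± 0.33, adjusted p = 0.169) and P4ha1 (1.06 ± 0.35, adjusted p = 0.0556) did not pass. The HIF core letters ACGTG were in 19.6% of all promoters, in 16 of 31 glycolysis promoters (51.6%) and in 13 of 20 promoters of the hypoxia list (65.0%). The oxygen in the culture is not given. The call of Ndrg1 was lost without native array 1, 2 or 3 or activated array 1 or 3 (adjusted p = 0.0572 to 0.0653). The promoter of Aldoc holds the letters on the opposite strand shortly behind its start, so the strand of the gene printed here reads CACGT.
Aldoc, chr11:78322823-78323122, plus strand, match 27 bases after the start: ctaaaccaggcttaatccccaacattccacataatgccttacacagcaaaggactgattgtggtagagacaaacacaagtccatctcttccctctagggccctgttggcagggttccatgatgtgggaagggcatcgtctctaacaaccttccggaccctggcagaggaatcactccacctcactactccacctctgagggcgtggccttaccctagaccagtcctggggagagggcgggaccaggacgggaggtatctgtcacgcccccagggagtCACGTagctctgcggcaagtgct

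Nearly all sterol synthesis genes rose. Of 20 genes 19 rose (95%) and 0 fell, with a median of 1.76. Sqle, which makes squalene epoxide, read 6.87, 6.72 and 6.69 in native and 10.02, 9.21 and 10.15 in activated cells and rose by 3.04 ± 0.22 (adjusted p = 2.49e-06). Msmo1 read 8.48, 8.23 and 8.17 and 10.96, 10.36 and 11.32 and rose by 2.58 ± 0.23. Cyp51 read 7.31, 7.26 and 7.03 and 10.05, 8.84 and 9.998 and rose by 2.43 ± 0.28. Activated array 2 was the lowest of its group for all 3 and far above the native arrays. Lss (2.26 ± 0.25), Stard4 (2.26 ± 0.22) and Idi1 (2.22 ± 0.18) rose as well. The member that was not called was Insig1 (0.83 ± 0.35, adjusted p = 0.121), the protein that holds SREBP in the endoplasmic reticulum. A list of sterol exporters, LXR receptors and Mylip moved the other way: 4 of 5 measured genes fell and 0 rose. Abca1, the main cholesterol exporter, read 8.38, 8.33 and 8.38 and 5.64, 5.76 and 5.56, at background after culture, and fell by 2.71 ± 0.12 (at least 1.97, adjusted p = 9.04e-08). Mylip (-2.27 ± 0.33), which degrades the LDL receptor, Abcg1 (-1.39 ± 0.34) and Abca7 (-0.69 ± 0.21) fell. Without activated array 3 the falls numbered 2. The call of Abcg1 was lost without activated array 3 (adjusted p = 0.0559). Abca7 did not pass without native array 1, 2 or 3, activated array 1, 2 or 3 or native Aire-deficient array 2 or 3 (adjusted p = 0.0525 to 0.119). Of 19 sterol promoters 1 held TCACNCCAC (5.26%), a form of the sterol element, against 1.24% of all promoters.

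Most genes of fatty acid synthesis rose. Scd1 (chr19:44394450-44407709), the stearoyl-CoA desaturase, read 5.04, 4.86 and 4.90 in native cells, at background, and 11.62, 11.29 and 11.93 in activated cells, a rise of 6.68 ± 0.97 (at least 5.35, adjusted p = 0.000502). This was the largest fitted difference of all genes, but its lower bound lies under the rise of Il2ra. The wild-type arrays were close within each state, while activated Aire-deficient array 3, which enters the SE, read 6.76. Fads2, a desaturase of polyunsaturated fatty acids, read 6.27, 5.88 and 6.05 and 11.39, 10.97 and 11.44 and rose by 5.20 ± 0.49 (adjusted p = 1.73e-05). Scd2 read 9.35, 9.16 and 9.01 and 12.91, 12.63 and 12.90 and rose by 3.64 ± 0.21. In all 3 desaturases every activated array lay far above every native array. Fads1 (2.55 ± 0.31), Elovl6 (1.74 ± 0.24) and Acsl5 (1.09 ± 0.16) rose too, and in all 12 of 14 rose and 0 fell (median 0.95). The transcript of the regulator Srebf1 (0.51 ± 0.25, adjusted p = 0.211) was not called. None of 15 fatty acid promoters held the sterol letters.

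Most genes of amino acid supply rose. Of 27 targets of ATF4 and genes of amino acid and one-carbon metabolism 16 rose and 0 fell (median 0.75). Asns, asparagine synthetase, read 6.77, 6.19 and 6.39 in native and 11.22, 10.39 and 11.28 in activated cells and rose by 4.51 ± 0.34, 22.8-fold (adjusted p = 3.15e-06). Psat1 of serine synthesis read 7.69, 7.69 and 7.67 and 10.04, 9.41 and 10.20 and rose by 2.20 ± 0.18, and Mthfd2 of mitochondrial one-carbon metabolism read 7.69, 7.86 and 8.07 and 10.16, 9.38 and 10.30 and rose by 2.07 ± 0.22. All 3 had separate groups, with activated array 2 lowest. Phgdh (1.46 ± 0.16), Chac1 (2.06 ± 0.41, at least 1.54) and Gpt2 (1.64 ± 0.36, at least 0.82) rose too. The transcript of the factor itself was not called, Atf4 (-0.11 ± 0.20, adjusted p = 0.817), nor was Slc3a2 (-0.38 ± 0.21, adjusted p = 0.265). The letters TGATGNAA, a form of the combined C/EBP and ATF site, were in 3.97% of all promoters and in 5 of 24 promoters of the list (20.8%). The promoter of Asns holds them.
Asns, chr6:7693160-7693459, minus strand, match 23 bases before the start: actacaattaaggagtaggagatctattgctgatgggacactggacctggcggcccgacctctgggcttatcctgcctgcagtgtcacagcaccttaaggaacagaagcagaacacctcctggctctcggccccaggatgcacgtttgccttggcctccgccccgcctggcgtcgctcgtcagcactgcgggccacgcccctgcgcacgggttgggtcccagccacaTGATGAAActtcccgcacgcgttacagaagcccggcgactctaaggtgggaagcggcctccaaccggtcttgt

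**Figure D4:**
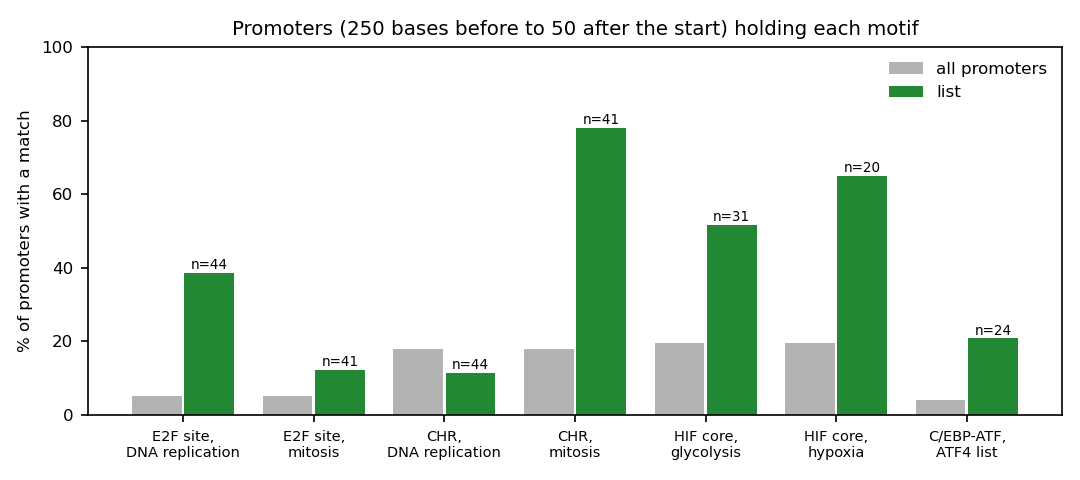
Percent of promoters that hold each motif, for all 32851 RefSeq promoters (grey) and for the promoters of a gene list (green, n promoters above the bar). E2F letters are in 38.6% of replication promoters and CHR letters in 78.0% of mitosis promoters.

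Other parts of protein synthesis moved less. Of 18 aminoacyl-tRNA synthetases 7 rose (38.9%, against 9.72% of all genes) and 0 fell. Among the rises were Cars (1.11 ± 0.25), Iars (1.09 ± 0.20) and Gars (1.07 ± 0.18). The rises numbered 13 without activated array 2. Of 54 ribosomal protein genes 0 rose and 6 fell (11.1%, near the 10.9% of all genes). The falls numbered 3 without native array 3, activated array 1 or activated array 2, and 10 without activated Aire-deficient array 3. Of 52 ribosome assembly genes 2 rose (3.85%, against 9.72% of all genes) and 3 fell (5.77%, against 10.9%). These rises numbered 10 without activated array 2, 0 without native array 2 or activated array 1 and 1 without native array 1, native array 3 or activated array 3. The falls numbered 0 without native array 2, 1 without native array 3 or activated array 2 and 7 without activated Aire-deficient array 3. Of 27 genes of the endoplasmic reticulum 6 rose (22.2%), led by Atf6 (1.83 ± 0.25), Sdf2l1 (1.77 ± 0.24) and Xbp1 (1.15 ± 0.23), and 2 fell (7.41%). The rises numbered 11 without activated array 2. Dnajb9, a co-chaperone of the lumen, read 12.21, 12.45 and 12.38 in native and 9.27, 8.62 and 8.60 in activated cells and fell by 3.51 ± 0.29 (adjusted p = 6.73e-06). Its groups lay far apart, and Hspa5 (-0.85 ± 0.24), the chaperone it serves, fell as well. The call of Hspa5 was lost without native array 1, 2 or 3 or activated array 2 (adjusted p = 0.0517 to 0.0976).

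The mitochondrial and proteasome genes that rose did so by small amounts. Of 75 respiratory chain subunits 32 rose (42.7%) and 0 fell, but 1 rose at least 2-fold, Cox5a (1.19 ± 0.15), and the median was 0.42. The rises numbered 14 without native array 2, 18 without activated array 1 and 17 without activated array 3. They numbered 42 without activated array 2 and 51 without that array and activated Aire-deficient array 3. Of 17 citric acid cycle enzymes 5 rose, led by Fh1 (1.22 ± 0.20), and 1 fell, Ogdh (-0.39 ± 0.094), and the rises numbered 2 without native array 2. The call of Ogdh was lost without native array 1 (adjusted p = 0.0563). Of 50 proteasome genes, chosen by their names, 15 rose (Psmc3ip of meiotic recombination among them) and 0 fell, with Psma5 (0.97 ± 0.22) and Psma1 (0.95 ± 0.16) in front. These rises numbered 7 without native array 2 and 8 without activated array 1 or 3. They numbered 21 without activated array 2 and 27 without that array and activated Aire-deficient array 3. The call of Psmc3ip was lost without native array 2 or 3, activated array 1 or 3 or native Aire-deficient array 1, 2 or 3 (adjusted p = 0.0512 to 0.143).

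Of 54 small nucleolar RNA genes, which guide the modification of ribosomal RNA, 27 fell (50%) and 1 rose, with a median of -0.72. Snord37 read 9.73, 10.40 and 9.85 in native and 7.72, 6.96 and 7.23 in activated cells and fell by 2.69 ± 0.36 (adjusted p = 0.000259). Snora75 read 10.88, 11.40 and 10.55 and 9.26, 7.89 and 8.15 and fell by 2.51 ± 0.38, and Snora44 (-2.39 ± 0.27) fell likewise. In these 3 genes every activated array lay below every native array. The gene that rose, Snord52, named after its values were seen, was at background in both states. These RNAs lie in introns, and the arrays may read host transcripts as well. The call of Snord52 was lost without native array 1, 2 or 3 or activated array 1 or 3 (adjusted p = 0.07 to 0.124).

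Of 300 microRNA entries, with 4 host transcripts that share the name, 6 rose (2%) and 32 fell (10.7%), against 9.72% and 10.9% of all genes. Of the 296 microRNA genes 112 were above background in at least 1 state. Mature sequences of RefSeq were at hand for 270 of the 296. The arrays read precursors and longer transcripts rather than the mature strands. Mir505 (chrX:60394403-60394492) fell most, from 10.92, 11.03 and 10.34 to 8.22, 8.21 and 7.40 (-2.82 ± 0.24, adjusted p = 9.47e-06). Mir30e read 7.90, 8.77 and 7.65 and 6.82, 6.43 and 5.92 and fell by 1.72 ± 0.33. Mir15a read 7.33, 6.98 and 6.87 and 8.68, 8.49 and 8.50 and rose by 1.50 ± 0.23. None of these 3 overlapped between states. Members with 1 seed did not always move alike, shown here by families chosen after their values were seen. The miR-15 and miR-16 strands share a seed, yet Mir15a rose, Mir16-2 (-0.63 ± 0.18) fell and Mir16-1 (0.23 ± 0.12, adjusted p = 0.223) was not called. Of the let-7 family Mirlet7d (-0.95 ± 0.15) and Mir98 (-0.81 ± 0.18) fell, and Mirlet7i (0.10 ± 0.21, adjusted p = 0.849) was not called. Mir30c-1 (-0.37 ± 0.12) shares its seed with Mir30e and fell too, to background from native levels so close to it that the lower bound is 0. Mir155 (-0.97 ± 0.21), whose mature strand is known from activated lymphocytes, fell as well. The call of Mir16-2 was lost without native array 1 or 2 or activated array 1 or 3 (adjusted p = 0.059 to 0.117). Mir30c-1 did not pass without native array 1, 2 or 3, activated array 1, 2 or 3, native Aire-deficient array 3 or activated Aire-deficient array 1 or 2 (adjusted p = 0.055 to 0.199). The mature strands follow, with the seed (bases 2 to 8) in capitals.
miR-15a-5p: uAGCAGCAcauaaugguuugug
miR-16-5p: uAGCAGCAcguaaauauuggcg
let-7d-5p: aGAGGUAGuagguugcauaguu
miR-98-5p: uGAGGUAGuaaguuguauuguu
let-7i-5p: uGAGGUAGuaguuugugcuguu
miR-30e-5p: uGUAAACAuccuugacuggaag
miR-30c-5p: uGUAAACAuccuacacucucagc
miR-155-5p: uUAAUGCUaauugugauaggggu
miR-505-3p: cGUCAACAcuugcugguuuucu

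The falls among all microRNA entries numbered 18 without native array 1, 17 without native array 2 and 21 without activated array 1 or 3. They numbered 43 without activated Aire-deficient array 3. Without that array and activated array 2 together 49 entries fell and 8 rose. The rises numbered 2 or 3 without any 1 of native arrays 1, 2 and 3, activated arrays 1 and 2 and native Aire-deficient array 3.

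Calls among interferon-stimulated genes lay in both directions, with the share of rises near that of all genes. Of 40 genes 4 rose (10%, against 9.72% of all genes) and 10 fell (25%, against 10.9%). Ifitm2 read 7.72, 7.07 and 7.66 in native and 10.70, 10.43 and 11.50 in activated cells and rose by 3.39 ± 0.28, and Ifitm1 read 6.43, 6.21 and 6.56 and 9.19, 8.82 and 10.23 and rose by 3.01 ± 0.27. Both block the entry of viruses, are close copies and had separate groups. Oas2, an RNA sensor, read 8.55, 7.78 and 8.11 and 6.15, 5.82 and 5.57 and fell by 2.30 ± 0.31 (at least 1.76). Ifit3 (-2.22 ± 0.47), Ifit1 (-1.72 ± 0.51), Irf7 (-1.48 ± 0.43) and Irf1 (-1.43 ± 0.38) fell, while the immunoproteasome subunits Psmb8 (0.82 ± 0.17) and Psmb9 (0.81 ± 0.24) rose. The falls numbered 3 without native array 1, 5 without native array 2 and 4 without native array 3, activated array 2 or activated array 3. The call of Ifit1 was lost without native array 1 or 3 or activated array 2 or 3 (adjusted p = 0.0854 to 0.129). Irf7 did not pass without native array 1, 2 or 3 or activated array 2 or 3 (adjusted p = 0.0623 to 0.123). Without native array 2 or 3 or activated array 3, Irf1 missed the threshold (adjusted p = 0.053 to 0.075). The call of Psmb9 was lost without native array 1 or 2 or activated array 1, 2 or 3 (adjusted p = 0.0659 to 0.139).

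Calls among survival genes lay in both directions, with the share of falls near that of all genes. Of 18 genes of the BCL2 family and its partners 4 rose (22.2%, against 9.72% of all genes). A fall was called for 2 (11.1%, against 10.9%, and 1 gene without native array 2), and the median was 0.04. Bcl2l1 (Bcl-xL), which protects cells from death, read 6.84, 6.75 and 6.75 in native and 8.06, 7.26 and 8.38 in activated cells and rose by 1.12 ± 0.25. The pore-forming Bak1 (1.05 ± 0.19) and the caspase activator Apaf1 (0.81 ± 0.13) rose too, whereas Mcl1 (-0.95 ± 0.19), another protector, fell. Bcl2l11 (Bim) read 9.34 to 9.63 and 8.57 to 9.52 and was not called. Metallothioneins, which bind zinc, rose: Mt1 read 7.19, 6.76 and 6.90 and 9.99, 9.85 and 8.82 and rose by 2.60 ± 0.63. Mt2 (3.08 ± 0.80) rose as well. Activated array 3 was the lowest of its group for Mt1 and Mt2. Of 15 metallothionein and oxidative stress genes 7 rose (46.7%, against 9.72% of all genes). A fall was called for 1 (6.67%, against 10.9%), Gclc (-1.09 ± 0.13) of glutathione synthesis. The rises numbered 3 without activated array 1 and 4 without activated array 3. The call of Mt2 was lost without native array 2 or activated array 1 (adjusted p = 0.0698 to 0.0777). Of 20 lysosome and autophagy genes 3 rose (15%, against 9.72% of all genes), led by Gabarapl1 (2.28 ± 0.21). Falls were called for 7 (35%, against 10.9%), led by Map1lc3a (-1.87 ± 0.17, at least -1.41) and Ctsl (-1.25 ± 0.26). Those falls numbered 4 without native array 1, native array 3, activated array 2 or native Aire-deficient array 3 and 11 without activated Aire-deficient array 3.

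The same contrast in Aire-deficient cells called 1739 rises (8.72%) and 2263 falls (11.4%). Of the wild-type rises 1548 were also called as rises there, and of the wild-type falls 1857 were also called as falls. Both contrasts use the same estimate of each gene's spread, so their calls are not independent of each other. No gene was called in opposite directions. The test of the difference itself, the interaction of genotype and state, called 0 of 19938 genes (0%) with limma. An unadjusted p under 0.05 was found for 86 genes (0.431%). That share is well below what this threshold would give with no interaction in any gene, so the test was strict on these arrays. Activated Aire-deficient arrays also correlated less closely (mean r 0.962) than activated wild-type arrays (0.983). The count of 0 thus does not show that the genotypes respond alike. Il2ra rose by 6.01 ± 0.20 in wild-type and 5.55 ± 0.20 in Aire-deficient cells, Gzmb by 5.15 ± 0.25 and 4.82 ± 0.25, and Bub1 by 4.23 ± 0.13 and 4.13 ± 0.13. Ccr9 differed by -5.74 ± 0.25 and -5.37 ± 0.25, and Dtx1 by -4.37 ± 0.14 and -4.22 ± 0.14. The 2 genotypes thus moved each of these genes in 1 direction. Wider gaps stood at Scd1 (6.68 ± 0.97 and 4.69 ± 0.97), Ctla4 (2.43 ± 0.83 and 0.76 ± 0.83) and H2-Ab1 (3.33 ± 0.85 and 1.27 ± 0.85). For Scd1 activated Aire-deficient arrays read 11.45, 11.88 and 6.76, so array 3 alone was low. The interaction at Ctla4 was -1.66 ± 1.18 (Aire-deficient minus wild-type response) and at H2-Ab1 -2.07 ± 1.20, both with an adjusted p of 1.

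**Figure D5:**
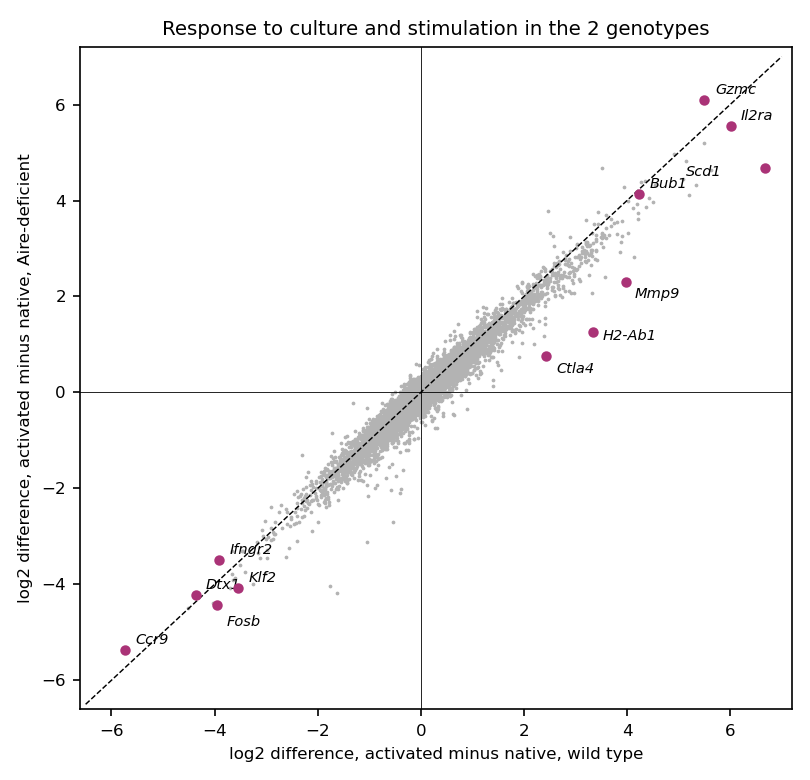
Log2 difference of activated minus native cells in wild-type (horizontal axis) and Aire-deficient cells (vertical axis), 1 grey point per gene above background in a wild-type state, with 12 genes of the text marked and the line of equal differences dashed. Each marked gene lies on the same side of 0 on both axes, and Scd1, Mmp9, H2-Ab1 and Ctla4 lie below the line.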

How the data were processed

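RNA of 12 samples was read on Affymetrix Gene 1.0 ST arrays. The authors deposited log2 values, which the submitters' processing notes tie to Partek and RMA (versions and options not given in the sources used here). Of 35556 transcript clusters 21789 had 1 gene symbol in the platform annotation, 1621 several and 12146 none. Symbols were updated through the RefSeq gene table of GRCm38.p6 (21698 matched), and the brightest cluster stood for each of 999 genes with several, leaving 19938 genes. Groups came from the sample titles. Differences were fitted with limma (version 3.58.1, under R 4.3.3), by lmFit on 4 group means over 12 arrays with eBayes moderation and Benjamini-Hochberg adjustment. Array values carry no read depth, so the number of arrays limits the precision. The text names the 15 largest rises and falls whose groups do not overlap, up to 6 called members per list and direction, uncalled members by value, and identity genes. The members and lists were chosen with earlier results of these data known. The title numbers were not used to pair the arrays in the main fit. Same-numbered arrays' deviations correlated at 0.234, 0.00855 and -0.103, and those of differently numbered arrays at -0.209 to 0.203. With 3 arrays per group these values cannot tell whether the numbers mark pairs. Alternatives covered the samples fitted, a block on the title number, centring, quantile normalization, dim genes, clusters, eBayes settings, array weights and leaving out each array.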

Additional observations from a re-analysis of the deposited data

Results flagged for a closer look

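Of 13767 transcript clusters without a single gene symbol, which entered no comparison above, 711 were called higher and 2659 lower in activated wild-type cells when the same test was run over the whole table. Of these clusters 24.5% were called, not far from the 20.6% of the 19938 genes above, which were adjusted among themselves. Most of the calls among the clusters were falls. What they read is not named in the tables used here.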

How the results depend on the processing

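No called gene named above changed direction under the 24 alternative settings, while 11 of the 50 that were not called changed sign under at least 1. Of 248 named genes that were called, 199 stayed called without any single array and 49 lost the call without at least 1. Leaving out 1 array gave 1350 to 2656 rises and 1439 to 3219 falls, 800 to 1164 rises and 633 to 761 falls of at least 2-fold, and 0 genes in the interaction. Without activated array 2, 57.2% of calls were rises, against 47.2% as reported. Centring on the olfactory receptor median gave 470 rises and 413 falls (463 and 384 of at least 2-fold), kept 21.5% of the calls, and ended that of 99 named genes. Under it 43 mitosis, 24 replication, 10 glycolysis, 10 sterol, 5 fatty acid and 8 suppressor genes rose, 4 genes of the ATF4 list, 1 respiratory chain gene and no tRNA synthetase or proteasome gene rose, and 12 immediate early, 9 naive, 4 TGF-beta and 12 small nucleolar genes fell. The median of all genes was then -0.101. The cause was not tested. Without activated array 2 and activated Aire-deficient array 3, a choice made after seeing the data, 3300 genes rose. With the title number as a replicate block 2101 genes rose and 2397 fell (2372 and 2708 on wild-type arrays alone), so these counts over all genes moved by under 1.5 times. Among the lists, that block gave 9 (13 on wild-type arrays alone) falls of T cell receptor signalling genes, 17 (18) of interferon genes and 6 (2) of ribosome assembly genes, and 11 (9) rises of endoplasmic reticulum chaperones. Of the 50 named genes without a call at most 17 passed under 1 setting. Values near background carry no size, and 3 arrays per group limit what can be called.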
